A study of Mus musculus with 41 samples.

Results

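The 12 tumors compared here are the spindle cell tumors of a series of 41 mouse mammary tumors, chosen by the label for morphology (spindle-like, p53) and split by the diet that the mice ate as adults. Adult high fat diet (HFD) joins 3 tumors of mice fed HFD throughout with 3 of mice switched from low fat diet (LFD) to HFD after puberty (LFD-HFD). Adult LFD joins 3 tumors of mice fed LFD throughout with 3 of mice switched from HFD to LFD (HFD-LFD). All 12 grew from Trp53-null mammary tissue transplanted into the cleared fat pads of female BALB/c hosts, so each tumor carries the same Trp53 loss while its blood vessels, fibroblasts, fat and immune cells come from a host with intact Trp53. The HFD was rich in animal fat, with a single genotype and strain in both groups and no drug or other agent. By the labels 3 of the 12 tumors occurred early, M84R and M86R (LFD-HFD) and M129L (HFD-LFD), and the other 9 late. The other 29 tumors carry a label of variable morphology, read here as epithelial, and are used below for comparison with the spindle cell tumors. The labels give 12 different tumor numbers, and nothing in them says whether the tumors came from separate cohorts or transplant donors. The study's methods state that tissue of several donor mice was shared equally among the diet groups. Which donor a given tumor came from is not in the labels.

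Spindle cell carcinomas of the mammary gland are poorly differentiated tumors in which the cells have lost the shape and many of the junction proteins of an epithelium and have taken on features of mesenchymal cells, a shift known as epithelial-mesenchymal transition (EMT). Cdh1 (E-cadherin) and Epcam hold epithelial cells together and Krt8, Krt18 and Krt5 form their intermediate filaments, while Vim (vimentin) is the intermediate filament of mesenchymal cells and Zeb1 represses Cdh1. A diet rich in animal fat can change circulating lipids and insulin, the fat tissue around the gland and the immune cells within it. In the tumor-bearing mice of this study, plasma glucose and insulin did not differ significantly between the regimens. The question put to these arrays was which genes differed between spindle cell tumors of mice on HFD and of mice on LFD as adults, whatever their pubertal diet.

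Each array gave the RNA of 1 tumor in the Cy5 channel against Universal Mouse Reference RNA, a pool from 11 mouse cell lines, in the Cy3 channel. Values are log2 ratios of tumor over reference, on which a difference of 1 is a factor of 2, and a difference is always adult HFD minus adult LFD. The direction follows the labels and is opposite to the one that the study's methods state, which put the reference in Cy5. Probes for the Y-linked genes Ddx3y, Eif2s3y, Uty and Kdm5d, which female tumors lack, had a median log2 ratio below 0 on 12 of 12 arrays (-2.32 to -0.65). Of the non-control spots, 59.1% to 72.7% were well above background in the tumor channel, with means of 64.2% in adult HFD and 68.0% in adult LFD (exact two-sided permutation test, p = 0.13, adjusted p = 0.52 over 4 array measures). The 12 arrays lay on 3 slides scanned in 1 session. Slide 1 held 4 adult LFD tumors and no other, and slides 2 and 3 each held 1 adult LFD tumor (M32L and M33R) and 3 adult HFD tumors, so that adult diet can be compared within a slide only against a single LFD tumor.

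The markers did not bear out the spindle cell label alike in all 12 tumors. Cdh1 ranged from -2.60 to 1.92 with a median of 1.1, and 9 of the 12 tumors lay inside the range of the 29 epithelial tumors (-0.95 to 2.07). The 3 tumors below it were M129L at -2.60 (adult LFD), M63L at -2.47 and M76R at -1.16 (both adult HFD). Epcam fell below the epithelial range (-1.62 to 4.42) in M63L at -2.63 and M129L at -1.79, and 10 tumors lay within it. Vim lay above the epithelial range, whose upper end was -0.09, in 4 tumors, which were M63L at 1.59, M118R at 1.43, M76R at 0.51 and M129L at 0.44. Zeb1 was above its epithelial range in the same 4 tumors, between 0.36 and 1.1. The remaining 8 tumors, 4 of each adult diet, had Cdh1 between 0.97 and 1.92 and Zeb1 of -0.44 or less. Krt18 set apart a different set of tumors. It fell below its epithelial range (0.57 to 3.80) in M129L at -1.125, M33R at 0.43 and M118R at 0.49. The other 9 tumors lay within that range, among them M63L at 2.72 and M76R at 0.90. Esr1 lay inside its epithelial range in all 12 tumors. For the whole list of mesenchymal and EMT genes, 7 of 12 tumors had a mean above that of every epithelial tumor, and for the epithelial junction list 4 of 12 lay below every epithelial tumor. The 7 included M32L at 0.28 and M76R at 0.19, which also had the highest means of adipocyte and endothelial genes. The part of host cells in these means was not tested. All spindle cell arrays were scanned apart from the epithelial arrays, so histology and scanner cannot be told apart in these ranges.

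**Figure D1:**
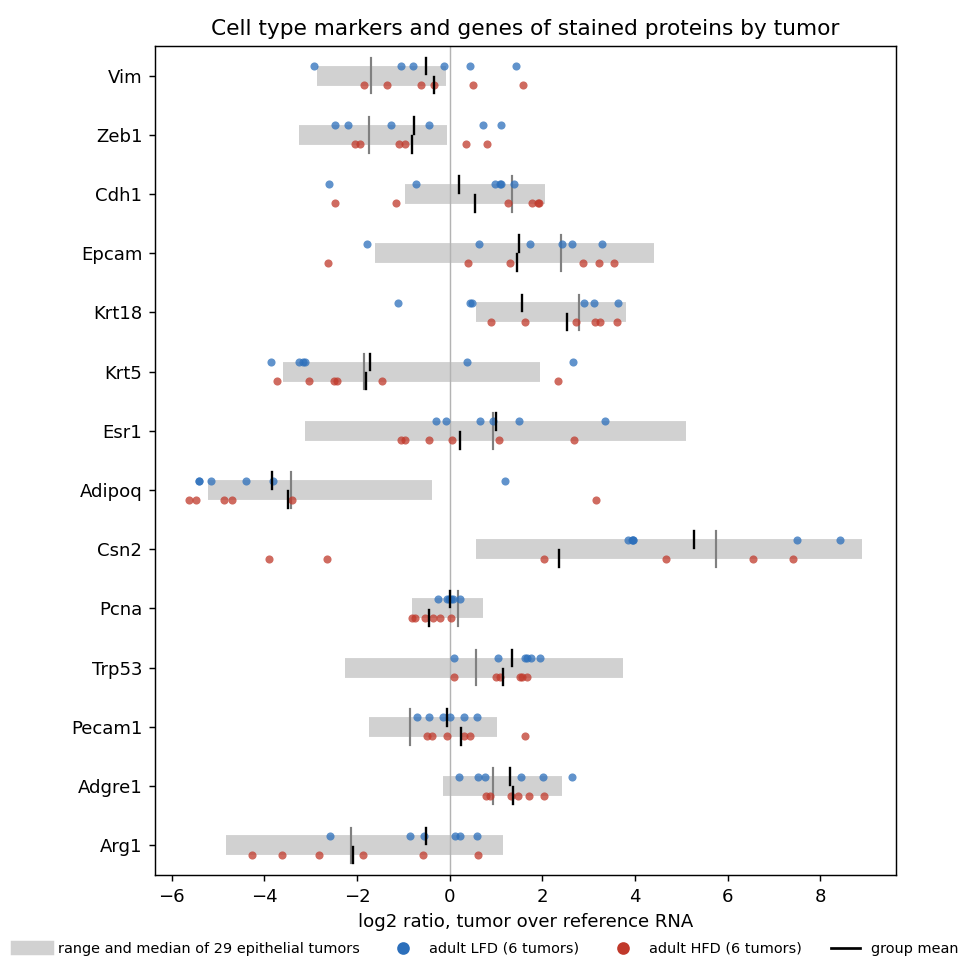
Log2 ratio of tumor over reference RNA (horizontal axis) for 9 cell type markers and 5 further genes (rows); blue points are the 6 adult LFD and red points the 6 adult HFD spindle cell tumors, black ticks are group means, and grey bars and lines give the range and median of 29 epithelial tumors. The diets overlap in every row, and Adipoq stands far above the other tumors in 1 tumor of each diet.

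Markers of fat cells, B cells and basal cells stood apart in single tumors. Adipoq, the hormone of fat cells, was 3.16 in M76R (adult HFD) and 1.2 in M32L (adult LFD), and between -5.63 and -3.40 in the other 10. The mean of the 16 tested adipocyte genes was 2.73 in M76R and 1.02 in M32L, above all 29 epithelial tumors (highest -0.55), and -4.22 to -2.83 elsewhere. These 2 arrays also had the smallest spread of log2 ratios over genes (SD 1.48 in M76R and 1.27 in M32L, 1.65 to 1.77 in the other 10). The mean of the 6 tested B and plasma cell genes was 2.93 in M76R and 2.97 in M86R, which are LFD-HFD tumors, and -1.35 to 1.08 in the other 10. Krt5, a keratin of basal and squamous cells, was 2.67 in M33R (adult LFD) and 2.34 in M84R (adult HFD), with 0.38 in M32L and -3.86 to -1.46 in the remaining 9. In bulk RNA, more cells of a type and more RNA per cell cannot be told apart.

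Over the 19633 genes with a value in every tumor, the pair most alike held 1 tumor of each diet, M33R and M84R, which shared a slide (r = 0.945 across genes). The next 4 pairs all lay among M128L, M18L (adult LFD), M54R and M56LA (adult HFD), with r from 0.911 to 0.916. Pairs within adult LFD had a median correlation of 0.775, pairs within adult HFD 0.770, and pairs of unlike diet 0.80, so tumors of 1 adult diet resembled each other no more than tumors of different diets. Pairs on 1 slide and pairs on different slides had medians of 0.782 and 0.780. These correlations run across genes of the same arrays and describe the tumors without a test.

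No gene passed the threshold for adult diet. Of 19825 genes tested with limma, 0 were higher and 0 lower in adult HFD at an adjusted p under 0.10 (background 0% in either direction), and the smallest adjusted p was 0.9999. At an unadjusted p under 0.05 there were 193 higher genes (0.974% of all genes) and 275 lower genes (1.39%), together 468 or 2.36%. The 6 adult HFD tumors lay entirely above the 6 adult LFD tumors for 5 genes (0.0252%) and entirely below for 11 (0.0555%). An unnamed probe among the 5 had no value for M33R, an adult LFD tumor. The median size of the difference was 0.189 over all genes, against a median SD between tumors of 1 diet of 0.499. The 95% interval of the difference had a median half-width of 0.613, and for 12550 genes (63.3%) it lay wholly between -1 and 1. For the other genes the interval reached a difference of a factor of 2 or more, and a p that misses the threshold does not show equal levels.

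**Figure D2:**
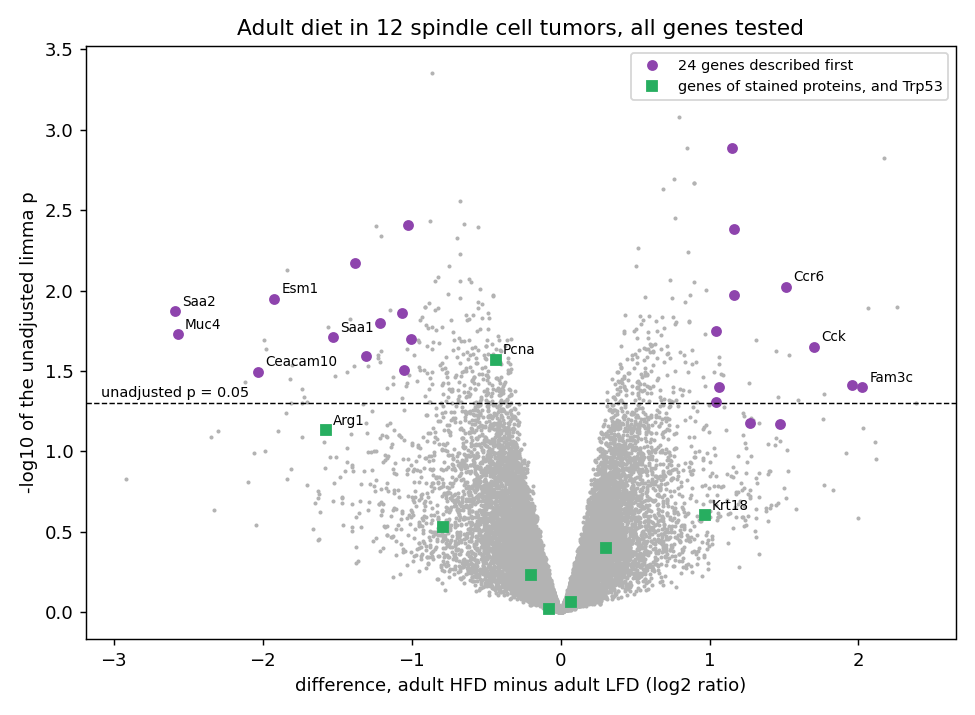
Each grey point is 1 of 19825 genes, with the difference of adult HFD minus adult LFD in log2 ratio (horizontal axis) and -log10 of the unadjusted limma p (vertical axis); purple points are the 24 genes described in the text, green squares the genes of stained proteins and Trp53. No gene reached an adjusted p under 0.10, and the gene with the smallest p, Nkapl, differed by -0.86.

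The smallest unadjusted limma p, 4.43e-04, belonged to Nkapl. It ran from -0.08 to 0.67 in adult HFD and from 0.78 to 1.45 in adult LFD, a difference of -0.86 (SE 0.18, adjusted p = 0.9999 by limma), with no overlap between the diets. The 24 genes shown by tumor are the 12 in each direction with the smallest p among those that differed by at least 1 and had the same sign with an unadjusted p under 0.05 after a second background correction and loess. They were chosen for this difference, so their values are a description, and the diets overlapped for all 24. All of them differed in the same direction within pubertal LFD and within pubertal HFD, which the choice favours.

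Among the genes with higher values in adult HFD, Cpb2, a carboxypeptidase that slows the breakdown of blood clots, is read by a probe at chr14:75683201-75683260 (mm9). Its log2 ratio had a lowest, median and highest value of -2.47, -2.18 and -1.76 in adult HFD and of -4.08, -3.31 and -2.30 in adult LFD, a difference of 1.15 (SE 0.28, n = 6 and 6, adjusted p = 0.9999 by limma). Only M33R among the adult LFD tumors reached into the adult HFD values, and within slide 3, where M33R lies, the difference was 0.03, against 1.3 within slide 2. Agmat, which makes putrescine from agmatine, ran from -1.90 to -0.30 (median -1.29) in adult HFD and from -3.31 to -1.70 (median -2.08) in adult LFD. Ccr6, a chemokine receptor of B cells and some T cells, ran from 3.13 to 4.97 against 1.13 to 3.29. Its 2 highest values were those of M76R at 4.97 and M86R at 4.92, the tumors with the high B and plasma cell means. The part of B cells in its difference of 1.52 was not tested.

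Fam3c, a secreted protein known for its role in EMT, had the largest difference among the 12 higher genes, 2.02 (SE 0.88). It was 5.80 in M56LA, 5.12 in M63L and 4.25 in M54R, the HFD tumors, and 0.06 to 3.31 in the LFD-HFD tumors. The adult LFD tumors lay between 0.06 and 2.58, so the LFD-HFD tumors overlapped them. Cck (cholecystokinin) was close to 0 in M63L and -4.79 to -2.5 in the other adult HFD tumors, against -5.09 to -3.01 in adult LFD. The rest of the higher genes were Kif12, a kinesin (1.16), Smim38 (1.05), Tnfaip2 (1.06), Arhgap27 (1.05), Gm1987 (1.96), Scx, a transcription factor of tendon cells (1.27), and Foxj1, a transcription factor of ciliated cells (1.47). Scx and Foxj1 had unadjusted p of 0.067. Arhgap27 rested in part on M86R, at 3.89 where the other adult HFD tumors lay between 1.21 and 1.83.

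Among the genes with lower values in adult HFD, the acute phase proteins Saa1 and Saa2 had large differences. Saa2, read at chr7:54009622-54009681, ran from -3.65 to 1.81 (median 1.45) in adult HFD and from 1.78 to 4.25 (median 2.52) in adult LFD, a difference of -2.59 (SE 0.90). M54R at -3.65 and M63L at -1.58 were far below the other 4 adult HFD tumors, which lay between 1.40 and 1.81, next to the lowest LFD values. Saa1, read at chr7:53996070-53996129, was higher than in any other adult HFD tumor in M84R, at 3.58, and the other 5 lay at or below 1.21, under the lowest adult LFD value of 1.73. The 2 genes are near-identical neighbours, so each probe may also read the other gene. Esm1, which endothelial cells secrete, ran from -0.99 to 2.42 in adult HFD and from 0.84 to 4.29 in adult LFD, a difference of -1.92 (SE 0.65), and it was below the slide's LFD tumor within both slides that held both diets (-1.79 and -2.44).

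Nrg1, a ligand of the ErbB receptors, had medians of 0.68 in adult HFD and 2.08 in adult LFD and differed by -1.05. M84R again stood with the adult LFD tumors, at 2.39. Mgst2, a glutathione transferase of membranes, differed by -1.22, with M86R at -2.5 and M56LA at -1.91 lowest. Muc4, a membrane mucin of epithelia, differed by -2.57, with values from -4.34 to 0.10 in adult HFD and from -2.04 to 2.49 in adult LFD, and its tumor signal was well above background on 4 of 6 adult HFD arrays. Ceacam10 (-2.03) was well above background on 2 of 6 and Klhl10 (-1.38) on 1 of 6 adult HFD arrays, so their low side is only partly measured. Neil3, a DNA glycosylase of dividing cells, differed by -1.0, Zfp9 by -1.03, Ercc6l2 by -1.3 and 4930432K21Rik by -1.07. After the second background correction and loess the differences of Zfp9 and Klhl10 were -0.39 and -0.35.

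With slide as a block, all 24 kept their sign and 5 had an unadjusted p under 0.05, against 68.7% and 4.18% of all genes. The difference of Gm1987 was then 0.32 and that of 4930432K21Rik -0.32. The 24 genes were chosen in these same tumors, so the choice favours the same sign here and within each slide. Within slide 2 the sign held for 22, within slide 3 for 21, and within both for 19, each against 1 LFD tumor. In the epithelial tumors, which had no part in the choice, 11 of the 24 differed in the same direction. Over all 24 the epithelial differences ran from -1.27 to 0.59, and 2 had an unadjusted p under 0.05, where 4.22% of all genes had. Of these 2, Ceacam10 (-1.27) differed in the same direction as in spindle cell tumors and Foxj1 (-0.99) in the opposite direction.

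**Figure D3:**
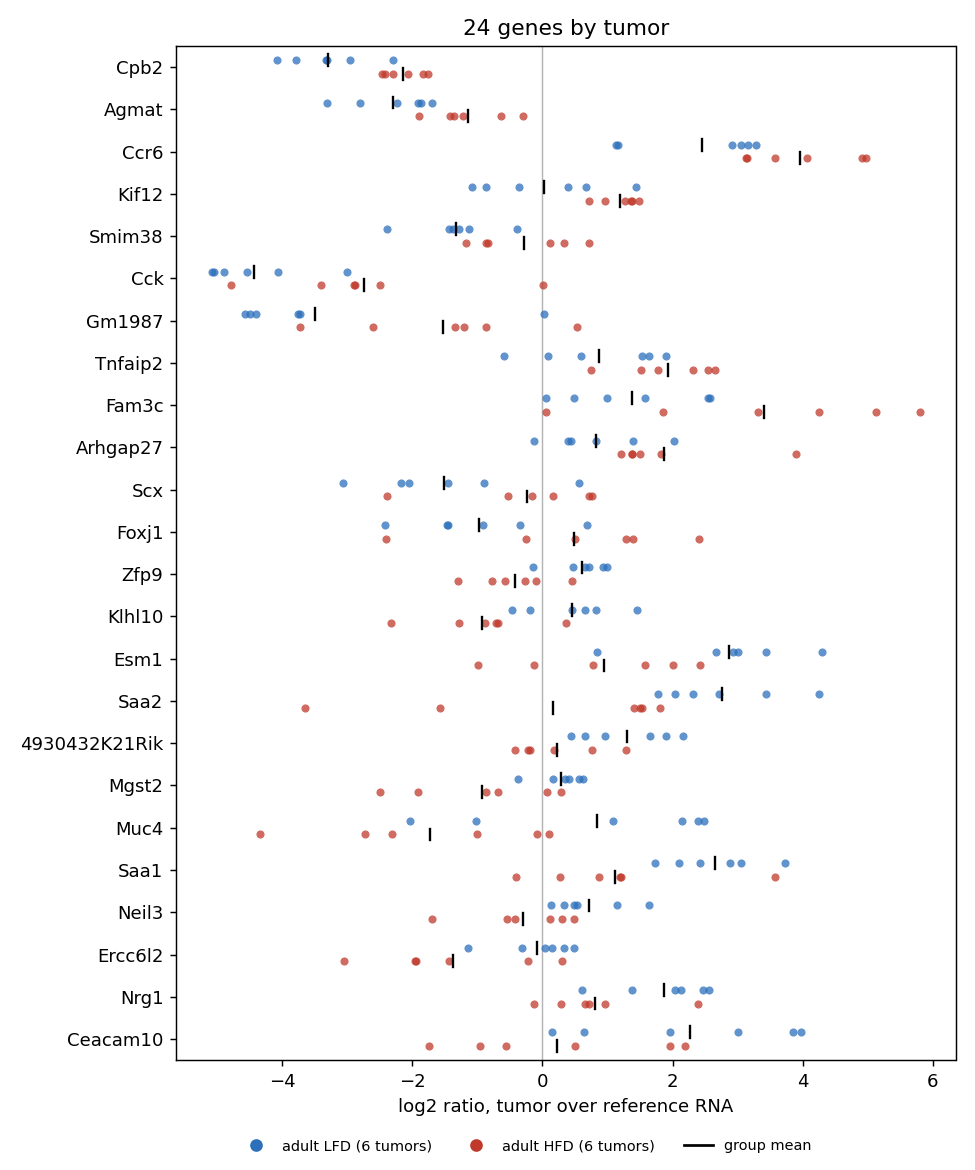
Log2 ratio of tumor over reference RNA (horizontal axis) of the 24 genes (rows, 12 with higher and then 12 with lower values in adult HFD); each point is 1 tumor, 6 per diet, and black ticks are group means. The diets overlap in every row, and single tumors carry much of several differences, as Cck in M63L.

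The proteins that the study stained were read at the RNA level whatever their values. Pcna, a clamp of the replication fork and a marker of proliferation, ran from -0.81 to 0.04 (median -0.44) in adult HFD and from -0.24 to 0.22 (median 0.01) in adult LFD. M84R alone of the adult HFD tumors was above 0, and M76R and M86R were lowest. The difference was -0.44 (SE 0.17, 95% interval -0.81 to -0.06, unadjusted p = 0.027, adjusted p = 0.9999 by limma), and -0.32 with slide as a block. It was larger, -0.70, after the second background correction and loess. Pecam1 (CD31), a marker of blood vessels, was -0.49 to 1.62 in adult HFD, with M76R highest, and -0.72 to 0.60 in adult LFD. Its difference was 0.30 with an interval from -0.46 to 1.06. Adgre1 (F4/80), a macrophage marker, had medians of 1.40 and 1.14 and a difference of 0.07 with an interval from -0.80 to 0.94.

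Arg1, the enzyme used to mark alternatively activated macrophages, had medians of -2.34 in adult HFD and -0.22 in adult LFD. Its lowest values were -4.26 in M76R and -3.62 in M86R, and M84R had the highest of all at 0.62. The difference was -1.58 (SE 0.81, unadjusted p = 0.074) with an interval from -3.33 to 0.18. Esr1 (estrogen receptor) differed by -0.79 with an interval from -2.36 to 0.78, and its 2 highest values were in M32L at 3.36 and M76R at 2.67, the tumors with the fat cell genes. Pgr was not tested, as too few arrays had it well above background in the tumor channel. Krt18 had medians of 2.93 and 1.70 and differed by 0.97 (interval -0.77 to 2.71). Krt5 differed by -0.08 (interval -2.79 to 2.63), but by -3.33 with slide as a block, where the lone adult LFD tumors are M32L and M33R, the 2 highest of that diet. Trp53 itself was well above background in all 12 tumors, between 0.08 and 1.95, and differed by -0.20. Where its probe lies relative to the deleted part of the gene is not given in the sources used here, so this value does not check the genotype.

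Of 533 genes in 32 lists of pathways and cell types, 513 were tested, 0 were called, and 5 had an unadjusted p under 0.05, which is 0.975% against 2.36% of all genes. The 5 were Cd86 (0.72), a co-stimulatory receptor of antigen-presenting cells, and with lower values Ccne1 (-0.84), the cyclin that starts DNA replication, Pcna, Tigar (-0.48), a Trp53 target that slows glycolysis, and Lalba (-1.74), the milk protein alpha-lactalbumin. With slide as a block the difference of Lalba was 0.06 and that of Tigar -0.83. The per-tumor means of the 2 diets overlapped for all 32 lists. No list held a gene whose diets did not overlap. The list medians ranged from -1.77 to 0.86 beside a median of -0.01 over all genes, and no test was made of any list. With slide as a block the median changed sign for 11 of the 32 lists.

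Genes of cell division had lower values in adult HFD in 25 of 26 cases, with a median of -0.38, where 51.5% of all genes were lower. Mki67 differed by -0.32, Top2a by -0.34, Mcm2 by -0.57 and Foxm1 by -0.56, and 2 genes, Ccne1 and Pcna, had an unadjusted p under 0.05. The mean of the list was -0.97 in M76R and -0.15 in M86R, below all 6 adult LFD tumors, and 0.32 to 0.70 in the other 4 adult HFD tumors, within the adult LFD range of 0.08 to 0.80. Without M32L, M76R and M86R the median was -0.13, and with slide as a block it was -0.11. Within slide 2 the median was 0.33 and within slide 3 it was -0.51. It was -0.72 for LFD-HFD minus LFD and -0.05 for HFD minus HFD-LFD. M76R is also the tumor with the highest adipocyte, skeletal muscle and endothelial means, and the part of those cells in this difference was not tested.

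Milk protein genes had the lowest median, -1.77, with 6 of 8 genes lower. Csn2 (beta-casein) was -3.89 in M54R and -2.64 in M63L, 2.03 in M84R and 4.67 to 7.40 in the other adult HFD tumors, against 3.85 to 8.42 in adult LFD. The differences were -2.92 for Csn2, -1.81 for Csn1s1, -1.99 for Wap and -2.34 for Glycam1, with SDs between tumors that left all 4 above an unadjusted p of 0.05. With slide as a block the list's median was -0.21. Interferon-induced genes had lower values in 25 of 27 cases with a median of -0.25 and 0 at an unadjusted p under 0.05. Their list mean was 0.88 in M63L, the lowest of the 12, and 1.99 to 3.55 in the other adult HFD tumors, against 2.12 to 3.73 in adult LFD.

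All 16 tested adipocyte genes had higher values in adult HFD, with a median of 0.37, and 0 had an unadjusted p under 0.05. The median was 0.12 without M32L and M76R, and -0.09 without M32L, M76R and M86R. Within slide 2, where M32L is the LFD tumor, the list's median was -5.30, within slide 3 it was 1.43, and with slide as a block it was -1.59. Genes of fatty acid synthesis had a median of -0.16 (10 of 16 lower) and those of cholesterol synthesis one of -0.13 (16 of 20 lower), with Fasn at -0.29 and Scd1 at 0.15 among the former. Genes of fatty acid uptake and oxidation had a median of 0.09, those of the insulin and IGF pathway 0.05, with Igf1 at 0.00, and those of glycolysis and hypoxia -0.24. No gene of these 5 metabolic lists had an unadjusted p under 0.05.

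Lists of the tumor's own lineage had medians that were small against their spread. The mesenchymal and EMT list had a median of 0.14, epithelial junctions -0.06, and keratins and epithelial lineage 0.13, while their means spanned 2.5, 4.73 and 3.21 over the 12 tumors. Vim differed by 0.17 and Cdh1 by 0.34, with intervals from -1.40 to 1.73 and from -1.63 to 2.30. Collagen and matrix genes had higher values in 21 of 25 cases (median 0.26, Col1a1 0.19 and -1.26 with slide as a block), and matrix proteases and inhibitors in 17 of 21 (median 0.32, Mmp2 0.32), both with 0 genes at an unadjusted p under 0.05 and with medians of -0.63 and -0.16 with slide as a block. Apoptosis genes had a median of 0.11, with Bax at 0.01, Trp53 and its targets 0.05, endothelial genes -0.04, and angiogenic factors 0.08, with Vegfa at 0.02. With slide as a block the medians were -1.04 for endothelial genes and -1.37 for hormone receptors and luminal cofactors. Within slide 2, where M32L is the only LFD tumor, they were -2.10 and -2.30, and within slide 3 they were 0.03 and 0.45. Hormone receptors and luminal cofactors had a median of -0.16, TGF-beta pathway genes 0.00, with Tgfb2 at -0.54, and genes of the circadian clock -0.16, with Arntl at 0.09.

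Of the immune lists, macrophage genes had a median of 0.13, alternatively activated macrophage genes 0.16, classically activated macrophage genes -0.06, T and NK cell genes 0.03 (Cd3e 0.34), antigen presentation genes 0.22 (B2m 0.15) and neutrophil genes -0.24 (S100a8 -0.89). With slide as a block the median of alternatively activated macrophage genes was -0.87. It was -1.78 within slide 2, where M32L is the only LFD tumor, and 0.11 within slide 3. B and plasma cell genes had the highest median of all lists, 0.86, with 5 of 6 tested genes higher. Their list mean was 2.97 in M86R and 2.93 in M76R, against -0.95 to 0.18 in the other 4 adult HFD tumors and -1.35 to 1.08 in adult LFD, and without M32L, M76R and M86R the median was -0.21. Skeletal muscle genes had a median of 0.34 (Acta1 0.86, with M76R highest at -2.27), red blood cell genes 0.04 (Hba-a1 0.41), smooth muscle and myoepithelial genes 0.12 (Acta2 0.01, and -0.90 and -1.06 with slide as a block), and immediate early and heat shock genes -0.03 (Fos -0.13).

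**Figure D4:**
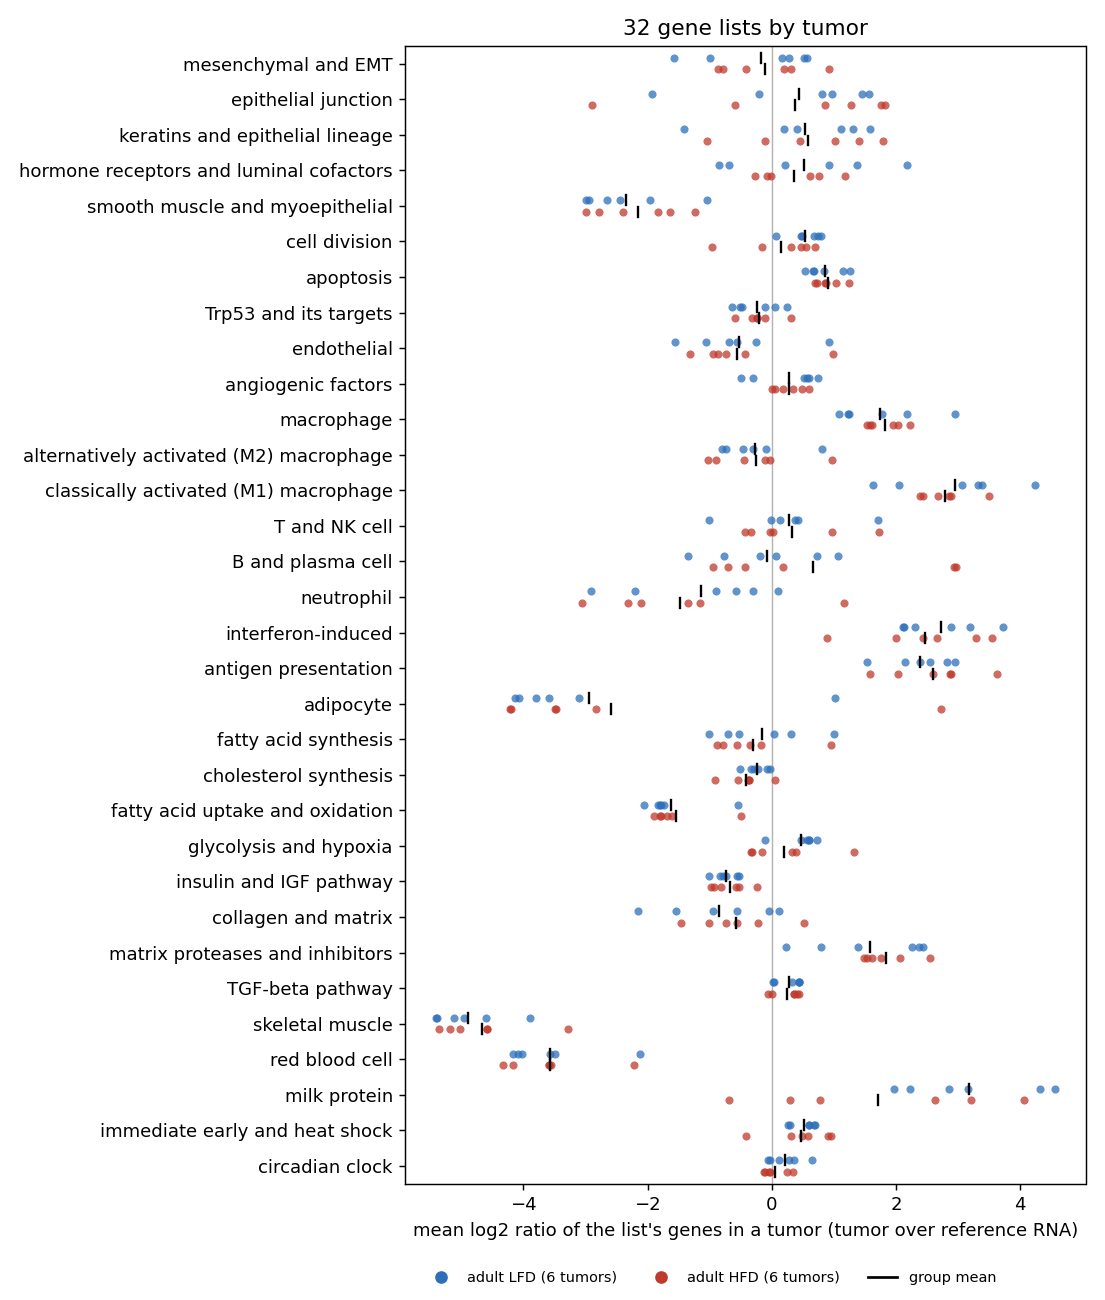
Mean log2 ratio of tumor over reference RNA over the tested genes of each of 32 lists (rows), 1 point per tumor, 6 per adult diet, with black ticks for group means. The diets overlap in every row, and the adipocyte list stands at 1.02 in M32L and 2.73 in M76R, far above the other 10 tumors.

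Adult HFD could be set against adult LFD separately within each pubertal diet, in contrasts that share no tumor. All 3 HFD-LFD tumors lay on slide 1 and all 3 HFD tumors on slides 2 and 3, so diet and slide cannot be told apart within pubertal HFD, nor in the part of the interaction and of the list medians that rests on it. Within pubertal LFD, 2 of 3 LFD-HFD tumors occurred early and 3 of 3 LFD tumors late. Among mice on LFD in puberty (LFD-HFD minus LFD, 3 tumors each), 0 genes passed an adjusted p under 0.10 with limma and 670 had an unadjusted p under 0.05. Among mice on HFD in puberty (HFD minus HFD-LFD, 3 tumors each), 0 passed and 274 had an unadjusted p under 0.05. Across 19825 genes the differences of the 2 contrasts correlated at r = -0.117, and 51.7% of genes had the same sign in both, given as a description because genes are not independent. The interaction of adult and pubertal diet was called for 0 genes, with 456 at an unadjusted p under 0.05.

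The lists that differed most between the pubertal diets were those of immune cells and milk proteins. B and plasma cell genes had a median of 2.45 for LFD-HFD minus LFD and of -0.71 for HFD minus HFD-LFD, and T and NK cell genes of 1.02 and -1.0. Milk protein genes had medians of 0.05 and -2.57. In all, 17 of 32 lists had medians of opposite sign in the 2 contrasts, and none of these differences was tested.

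One tumor decided the count within pubertal LFD. With M84R left out, 22 genes were called for LFD-HFD minus LFD, 19 higher and 3 lower, and 11 for the interaction. With M33R left out 1 gene was called in each, and with M18L left out 1 in the first. All 19 higher genes were higher in both M76R and M86R than in every other spindle cell tumor. They included the B cell genes Cr2 (complement receptor of follicular B cells, 5.72 in M76R and 6.00 in M86R, -0.22 to 1.04 in the others), Fcer2a (CD23), Spib, Bank1 and Mzb1, and Ighv14-2, an immunoglobulin heavy chain segment. These genes were picked out after their values were seen, and the comparison sets M76R and M86R against 3 LFD tumors. The epithelial junction list had a mean of -0.58 in M76R and of 1.83 in M86R, the highest of the 12 tumors.

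**Figure D5:**
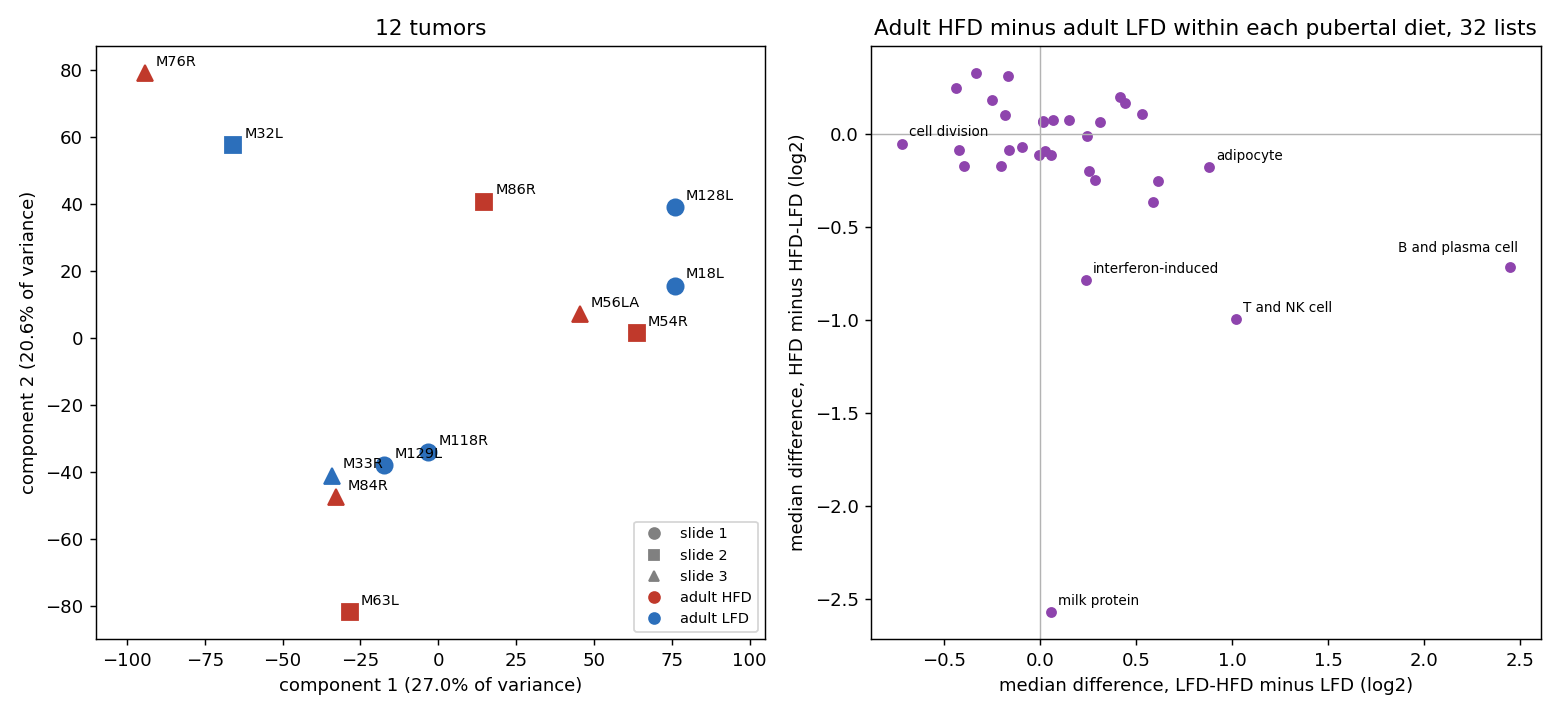
Left, the 12 tumors on the first 2 principal components of their log2 ratios (27% and 20.6% of variance), colored by adult diet and shaped by slide; right, the median difference of each of 32 lists for LFD-HFD minus LFD (horizontal axis) and HFD minus HFD-LFD (vertical axis), in log2. Colors mix on both components, and the B and plasma cell list lies at 2.45 and -0.71.

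Whether adult diet acted differently in spindle cell and epithelial tumors was tested over all 41 tumors on the same genes. The names of 6 tumors share 3 numbers, among them M56LA and an epithelial HFD tumor, and whether these came from 1 mouse is not given in the sources used here. The interaction was called for 0 genes with limma, with 311 at an unadjusted p under 0.05, and the smallest adjusted p was 0.114. With 1 tumor kept of each number, 38 in all, 0 genes were called, 332 had an unadjusted p under 0.05 and the smallest adjusted p was 0.379. Adult HFD (14) against adult LFD (15) in the 29 epithelial tumors gave 0 genes at an adjusted p under 0.10 and 836 at an unadjusted p under 0.05. The median size was 0.145 there and 0.189 in the spindle cell tumors (6 and 6). Groups of unlike size differ in sampling error, so these sizes are a description only. With 1 spindle cell tumor left out the interaction was called for 2 genes without M18L, for 1 without M128L or M76R, and for 0 without each of the others. The difference of Pcna was 0.15 in epithelial and -0.44 in spindle cell tumors (interaction adjusted p = 0.9999 by limma), and that of Arg1 0.64 and -1.58. Milk protein genes, at -1.77 in spindle cell tumors, had a median of 0.18 in epithelial tumors, and 18 of 32 list medians had the same sign in both histologies.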

How the data were processed

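Tumor RNA was measured on two-colour Agilent 4x44K arrays against a common reference. The deposited scanner files hold spot intensity values that the authors obtained with Agilent Feature Extraction (8.5.1.1 in the submitters' processing notes, 10.5.1.1 in the headers of the spindle cell arrays and 11.0.1.1 in those of the epithelial arrays), already background-subtracted and dye-normalized. The deposited series matrix holds the authors' log2 ratios, used as an alternative. For M86R those ratios had a slope of 1.606 on the values after the second background correction and loess. The slope was 1.157 to 1.232 on the other spindle cell arrays. Probe positions are those of the array design (mm9).

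The log2 ratio of red over green processed signal was computed per spot for 43020 non-control spots, outlier spots were set to missing and spots of 1 probe were averaged. Of 39429 probes, 25768 had a tumor signal well above background on at least 6 of 12 arrays and at least 4 values per adult diet. The probe with the highest mean signal stood for a gene, which left 19825 genes, 16193 of them with a symbol. Adult diets were compared with limma 3.58.1 in R 4.3.3 (lmFit and eBayes on the 12 tumors, no covariate, Benjamini-Hochberg adjusted p under 0.10), and the code was tested on simulated data. The interaction with histology was fitted over all 41 tumors. Array measures were compared between diets by exact permutation tests. The number of arrays limits the precision. A limma p sets a difference of means against the spread between these tumors, with variances moderated across genes.

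The genes shown by tumor were up to 15 called genes per direction, filled to 12 by the smallest p among genes that differed by at least 1 and had the same sign and an unadjusted p under 0.05 after normexp (offset 50) and loess. To these were added the genes of stained proteins and Trp53 and, for each list, up to 3 genes with an unadjusted p under 0.05 or else the first tested gene. Other list members named as examples, and the genes of single tumors, were chosen after their values were seen. The study's significance analysis of microarrays was not run here. Some genes are not reported here. The tumors, lists and tests were chosen with earlier results of these data known. Groups, slides and the alternatives below follow the labels and the file headers.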

Additional observations from a re-analysis of the deposited data

Results flagged for a closer look

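In 18 of 188 groups of 6 tumors examined, the highest or lowest tumor stood apart by Dixon's 95% criterion, which chance gives in about 1 of 20 independent groups. The groups examined share tumors and related genes and are not independent, so the count is a description. Most of the flagged values lay in M76R (adult HFD) and M32L (adult LFD). In M76R the log2 ratio was 3.16 for Adipoq, 2.72 for the fatty acid transporter Cd36, 2.74 for Fasn and -2.27 for the muscle actin Acta1. Its list means were 2.73 for adipocyte genes, -0.49 for fatty acid uptake and oxidation and -2.22 for red blood cell genes. In M32L Adipoq was 1.2, Fasn 2.93 and Gm1987 0.024, the list means were 1.02 for adipocyte genes, -0.55 for fatty acid uptake and oxidation and -2.12 for red blood cell genes, and the SD of the log2 ratios over genes was 1.27.

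In the other tumors, Arhgap27 was 3.89 in M86R and Krt5 was 2.34 in M84R, both above the rest of adult HFD. Within adult LFD, Bax was 0.70 in M33R, above the rest, and the mean of glycolysis and hypoxia genes was -0.11 in M128L, below the rest.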

How the results depend on the processing

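The count for adult diet in spindle cell tumors stayed at 0 genes in both directions under 19 of 21 alternatives that kept or dropped sets of tumors, changed the values, the filter, the test or the covariates, and with each tumor left out in turn (0 to 0). It was 1 higher gene with all 41 tumors in the fit, an unnamed probe that differed by 2.17 with no value for M33R, and 1 higher gene with slide as a fixed block, Pgk2, for which M32L stood at 0.92 and M33R had no value. The interaction with histology was called for 1 gene after median centring and for 2 without M32L, M76R and M86R, and LFD-HFD minus LFD for 1 gene without those 3 tumors, where M84R alone is assumed to vary like the other groups. With each tumor left out in turn the counts were 0 to 22 for LFD-HFD minus LFD (22 without M84R, 1 without M18L or M33R), 0 to 0 for HFD minus HFD-LFD, 0 to 11 for the interaction of adult and pubertal diet (11 without M84R, 1 without M33R) and 0 to 2 for that with histology (2 without M18L, 1 without M128L or M76R). The cause was not tested. Genes at an unadjusted p under 0.05 numbered 271 (without M86R) to 997 (no filter, 30082 genes), and 829 with slide as a fixed block. Of 60 single genes, 36 kept their sign in each alternative run for them, and of 32 list medians, which were computed under 20 of the alternatives (single tumors left out included), 6 did. Leaving out M32L and M76R, the slide blocks for list medians and the fit with 1 tumor per tumor number were chosen after seeing the data. No paired analysis was possible because the labels give no replicate numbers that tie tumors of different diets.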
